A study of Homo sapiens with 4 samples.

Results

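The 4 human HOX clusters were examined in H3K27me3 peak lists of HaCaT cells, an immortalised line of human keratinocytes. HOX genes encode homeodomain transcription factors that give cells their position along the body axis, and they lie in paralogous clusters, HOXA to HOXD, whose members are numbered from the 3′ to the 5′ end. Trimethylation of lysine 27 on histone H3 (H3K27me3) is laid down by Polycomb repressive complex 2, is associated with silent genes, and covers HOX genes that a cell type does not use in broad stretches. Members were the peaks that overlapped a cluster region by at least 1 bp, in human genome build hg19. The regions were HOXA on chromosome 7 from 27120000 to 27250000, HOXB on chromosome 17 from 46600000 to 46815000, HOXC on chromosome 12 from 54325000 to 54455000 and HOXD on chromosome 2 from 176950000 to 177060000. They held 73 of the 22045 peaks in both lists, 41 of the 8890 DMSO peaks and 32 of the 13155 AKBA peaks. The peaks at the edge of the HOXD region, 1 per list, began outside it, and 1227 bp of the DMSO peak and 4925 bp of the AKBA peak lay inside. The peak closest to an edge from outside was an AKBA peak of 1914 bp, 0.381 kb past the 5′ edge of HOXB, and the last AKBA peak inside that edge measured 2047 bp and ended 1.12 kb before it.

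One group of cells was kept for 12 hours with AKBA, an abbreviation commonly used for an acetylated boswellic acid of frankincense resin, and the other with the solvent DMSO. The labels give no dose and name no genetic change to the line. The series holds 4 samples, namely an H3K27me3 immunoprecipitate and an input DNA per condition, and the inputs were not analysed here. Each condition thus had 1 library, so no difference below has a replicate check and none was tested. An effect of AKBA and a difference between 2 libraries in depth, enrichment or peak calling cannot be told apart. A peak list holds no read numbers, so the depth is unknown, and a stretch outside the lists may carry the mark below the authors' threshold. In chromatin from a whole culture, fewer marked cells and less mark per cell cannot be told apart either. Peaks are given by position and were not tied to single genes, for want of gene positions in hg19, and the keratinocyte identity of the cells was not checked against marker genes.

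The 38 HOX genes of the clusters were placed in order with a RefSeq gene table of assembly GRCh38.p14, which fixes the direction of each cluster but not the position of a gene in hg19. High paralog numbers, the 5′ end, lie at high coordinates in HOXA and HOXB and at low coordinates in HOXC and HOXD. The 5′ ends carry HOXA13 and HOXD13, which pattern the digits and the urogenital tract, HOXB13, known from the prostate and the tail end of the embryo, and HOXC13, which controls keratin genes of hair and nail. Toward the 3′ ends lie HOXA2 and HOXB1, which act in the hindbrain, and HOXD1 and HOXC4. Each region was split at its midpoint into a 5′ side and a 3′ side of equal length.

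Polycomb marks in mammals are known to gather at sequence rich in CG dinucleotides, so promoter sequences from clusters and cluster ends with different peak patterns are shown. They come from RefSeq (GRCh38.p14) and give the 250 bases before the start of the gene, 5′ to 3′ on the gene's strand, with each CG in capitals. Whether these bases lie in an hg19 peak was not determined. HOXA13 (chr7:27200092-27200341, minus strand) is from the end of HOXA that held peaks and HOXA2 (chr7:27102684-27102933, minus strand) from the end without one. HOXD13 (chr2:176092471-176092720, plus strand) is from a cluster with peaks at both ends and HOXC4 (chr12:54016638-54016887, plus strand), whose entry is the same as that of HOXC5, from a cluster with no called peak.
HOXA13: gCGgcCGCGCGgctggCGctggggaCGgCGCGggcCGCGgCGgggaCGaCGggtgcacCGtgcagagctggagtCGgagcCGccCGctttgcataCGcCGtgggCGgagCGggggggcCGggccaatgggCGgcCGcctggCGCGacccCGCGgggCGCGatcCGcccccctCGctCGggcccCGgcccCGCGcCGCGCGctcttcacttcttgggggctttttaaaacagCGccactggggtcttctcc
HOXA2: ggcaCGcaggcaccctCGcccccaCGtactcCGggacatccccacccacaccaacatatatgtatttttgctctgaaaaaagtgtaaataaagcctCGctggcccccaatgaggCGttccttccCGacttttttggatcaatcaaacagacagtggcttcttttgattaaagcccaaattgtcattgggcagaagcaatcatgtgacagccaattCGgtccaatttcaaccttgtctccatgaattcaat
HOXD13: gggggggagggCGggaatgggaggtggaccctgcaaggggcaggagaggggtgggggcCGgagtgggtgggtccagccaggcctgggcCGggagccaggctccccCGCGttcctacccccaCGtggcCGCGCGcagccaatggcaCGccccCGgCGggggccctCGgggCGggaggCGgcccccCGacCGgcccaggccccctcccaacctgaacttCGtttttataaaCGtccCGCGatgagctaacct
HOXC4: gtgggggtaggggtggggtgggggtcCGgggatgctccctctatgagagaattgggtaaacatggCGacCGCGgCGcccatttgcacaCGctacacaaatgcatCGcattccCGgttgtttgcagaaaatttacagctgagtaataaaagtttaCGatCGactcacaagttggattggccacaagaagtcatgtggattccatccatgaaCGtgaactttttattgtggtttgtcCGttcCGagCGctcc
HOXA13 had 40 CG dinucleotides in this stretch, and 2.16% of the 35114 promoters in the table had as many or more. HOXA2 had 8, with 56.3% of promoters at that number or above. HOXD13 had 21 (30.2%) and HOXC4 had 14 (44.8%). These are single promoters, and the 16 promoters matched to 9 HOXA genes ran from 0 to 40 CG with a median of 19. Of the other ends read in the same way, HOXD1 had 31 CG and HOXB1 had 7. HOXB1 thus had fewer than HOXA2, although its cluster had peaks on both sides. Whether the number of CG goes with the peaks was not tested. A promoter entry was matched for 20 of the 38 genes, and the median of their 26 promoters was 19.5 CG against 11 over the table. Of these promoters 16 were from HOXA, 8 from HOXD and 1 each from HOXB and HOXC, so the median says little of HOXB and HOXC.

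The first comparison asked which clusters carried called H3K27me3 in either condition. HOXB and HOXD carried peaks from one end to the other with gaps between them, HOXA at its 5′ end, and HOXC had no peak in either list. In the DMSO list peaks covered 8.0 kb (6.14%) of HOXA, 30.9 kb (14.4%) of HOXB, 0 kb of HOXC and 15.9 kb (14.5%) of HOXD. In the AKBA list they covered 11.0 kb (8.45%) of HOXA, 51.9 kb (24.2%) of HOXB, 0 kb of HOXC and 32.6 kb (29.6%) of HOXD. The order of the clusters by the share covered was the same in both lists, and HOXB and HOXD were nearly level in the DMSO list. Over the 4 regions together 9.37% of bases lay in DMSO peaks and 16.3% in AKBA peaks. Between the first and last peak of each chromosome the genome had 0.259% and 0.501%, so the regions were covered 36.2 and 32.6 times as densely as the genome.

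**Figure D1:**
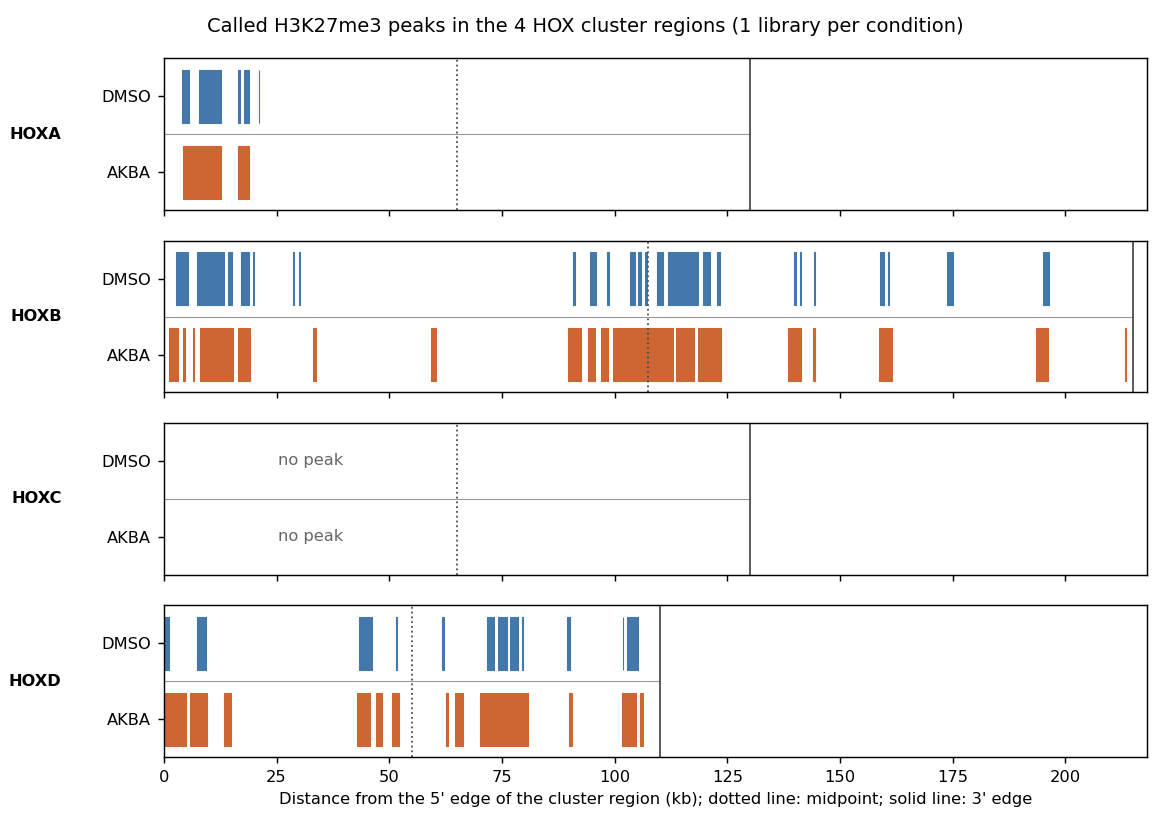
Called H3K27me3 peaks along each HOX cluster region, as distance in kb from its 5′ edge, with DMSO peaks (blue) above AKBA peaks (orange), 1 library each. HOXA peaks lie within 21.2 kb of the 5′ edge, HOXC has none, and several DMSO peaks of HOXB and HOXD face 1 wide AKBA peak.

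The HOXC region, 130 kb long, lay in a longer stretch without a peak. In the DMSO list that stretch measured 335.9 kb, from a peak 177.2 kb before the region to one 28.7 kb after it, and in the AKBA list 353.6 kb. HOXC therefore differed from the other 3 clusters in both conditions. An empty stretch of the length of the region is common, since 73.0% of the 22502 consecutive tiles of 130 kb over the genome held no peak of either list. How common the longer stretches are was not counted. An absence of peaks does not distinguish unmarked chromatin from a mark under the threshold.

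In HOXA the peaks of both lists lay on the side of HOXA13. The 5 DMSO peaks spanned 27228813 to 27245904, and the 2 AKBA peaks spanned 27231007 to 27245718. The remaining 108.8 kb of the region toward HOXA2, 83.7% of its length, held no DMSO peak, and 111.0 kb held no AKBA peak. The boundary on that side was set in the DMSO list by a peak of 160 bp, the narrowest width in that list, with a score of 3.37. The next DMSO peak began at 27231102, within 100 bp of the first AKBA peak. The widest and highest-scoring peak of HOXA was the same place in both lists, from 27237366 to 27242110 with DMSO (4745 bp, score 5.05) and from 27237324 to 27245718 with AKBA (8395 bp, score 7.88). The score is a value that the authors gave each peak. Its scale is not stated, and it serves here to rank peaks within a list. Among the alternatives below it also serves as a cutoff of 3 applied to both lists. The HOXA peak ranked above or level with 94.5% of DMSO peaks by score, and above or level with 98.9% of AKBA peaks.

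HOXB had a marked block in its middle, a second one at its 5′ end, and scattered peaks toward HOXB1. With the 2 lists pooled and gaps of at most 5 kb closed, the middle block ran from 46691456 to 46725253, a span of 33.8 kb. It held 10 DMSO peaks with 14.3 kb and 6 AKBA peaks with 28.2 kb, so that 42.4% of the block was covered with DMSO and 83.3% with AKBA. The block at the 5′ end, on the side of HOXB13, ran from 46794963 to 46817295, past the edge of the region, with 6 DMSO peaks covering 52.0% and 6 AKBA peaks covering 66.6%. Between these blocks the region was sparsely marked, and the longest stretch free of peaks in both lists measured 29.4 kb, from 46725254 to 46754645. Within single lists the longest free stretch was 60.7 kb with DMSO, from 46724154 to 46784869, and 32.0 kb with AKBA, from 46621494 to 46653510. The DMSO stretch was broken in the AKBA list by peaks of 1030 and 639 bp.

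The widest HOXB peak of each list lay in the middle block, and their ends overlapped. With DMSO it ran from 46696512 to 46703069 (6558 bp, score 3.83), and with AKBA from 46702148 to 46715357 (13210 bp, score 3.83). Both were among the widest of their lists, wider than or level with 99.7% and 99.9% of peaks. The highest-scoring HOXB peaks were elsewhere. With DMSO it was a peak of 230 bp toward the 3′ end, from 46673626 to 46673855 with a score of 4.96, which lay inside an AKBA peak of 2925 bp. With AKBA it was a peak of 2766 bp in the 5′ block, from 46795853 to 46798618 with a score of 5.65, which contained a DMSO peak of 1686 bp.

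HOXD was marked at both ends and in its middle, with a gap toward the 5′ end. The block at its 5′ edge began outside the region and ended at 176964992, and the next began at 176992915. No peak of either list lay in the 27.9 kb between them, 25.4% of the region. That was the longest free stretch with AKBA, and with DMSO it reached from 176959353 to 176993315, 34.0 kb. A block of 18.9 kb on the 3′ side, from 177011791 to 177030688, was the longest one wholly inside the region, with 5 DMSO peaks covering 33.2% and 3 AKBA peaks covering 66.6%. The widest AKBA peak of HOXD, from 177020180 to 177030688 (10509 bp, score 4.47), was in this block. The widest DMSO peak was not, and ran from 176993316 to 176996227 (2912 bp, score 4.75) opposite an AKBA peak of 2729 bp. The highest-scoring peaks marked opposite ends of the cluster. With DMSO it was 176957340 to 176959352 (2013 bp, score 6.34), on the side of HOXD13, and with AKBA it was 177051681 to 177054836 (3156 bp, score 8.04), on the side of HOXD1. At each of these places the other list also had a peak.

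**Figure D2:**
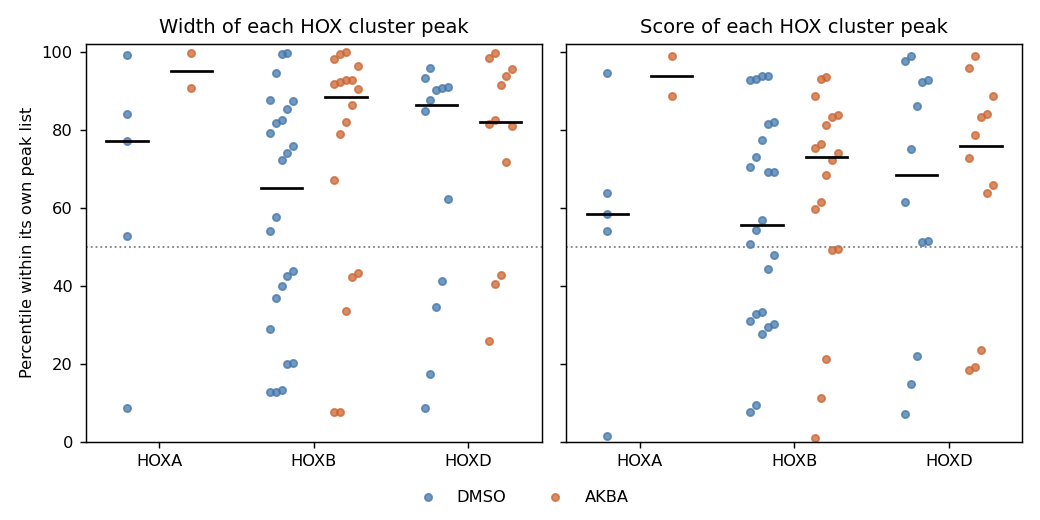
Percentile of each HOX cluster peak within its own list by width (left) and score (right), with DMSO peaks blue and AKBA peaks orange, black bars for medians, and a dotted line at 50, the list median. The median width percentile is 77.2 and 95.1 in HOXA, 65.0 and 88.5 in HOXB, and 86.3 and 82.0 in HOXD, for DMSO and AKBA in that order, and single peaks span nearly the whole range.

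HOX peaks were wide for their lists. Their median width was 973 bp with DMSO and 2317 bp with AKBA, against 552.5 and 742 bp over all peaks. Of the 41 DMSO peaks 9 were in the widest decile of their list, and of the 32 AKBA peaks 16 were. Peaks of at least 5 kb numbered 2 with DMSO, both in HOXB, and 6 with AKBA, 1 in HOXA, 3 in HOXB and 2 in HOXD. They made up 4.88% and 18.8% of the HOX peaks, against 0.787% and 1.84% of all peaks. Narrow peaks were present too, and the smallest were at the narrowest width of their list, 160 bp with DMSO and 214 bp with AKBA. By score the HOX peaks stood less far from the rest, with medians of 3.22 (all DMSO peaks 3.02) and 3.87 (all AKBA peaks 2.99).

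The second comparison asked how the clusters differed between AKBA and DMSO. The AKBA list covered more of HOXA, HOXB and HOXD, with fewer peaks than the DMSO list in HOXA and HOXB and as many in HOXD. AKBA bases exceeded DMSO bases 1.38 times in HOXA, 1.68 times in HOXB and 2.05 times in HOXD. Over the 4 regions the ratio was 1.74, below the 1.94 of the whole lists. The ratio of peak numbers was 0.780, with 2 AKBA against 5 DMSO peaks in HOXA, 18 against 24 in HOXB and 12 against 12 in HOXD. Over the whole lists it was 1.48, so the HOX clusters went the other way in number and the same way in bases. The lower number did not hold for peaks of at least 1 kb, of which the clusters held 1.20 times as many with AKBA. With peaks within 5 kb merged, which counts their gaps as covered, the ratio of bases was 0.861 in HOXA and 1.05 in HOXB.

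**Figure D3:**
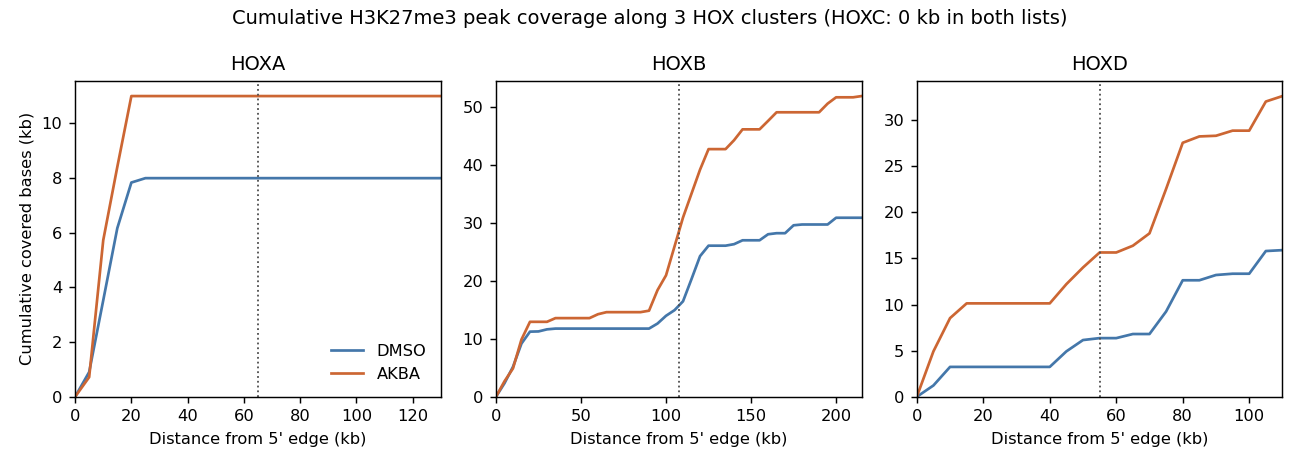
Cumulative bases inside called peaks (kb, vertical axis, own scale per panel) against distance from the 5′ edge (kb) in HOXA, HOXB and HOXD for DMSO (blue) and AKBA (orange), with a dotted line at the midpoint. The curves end at 8.0 and 11.0 kb in HOXA, 30.9 and 51.9 kb in HOXB, and 15.9 and 32.6 kb in HOXD, and they part most in the middle of HOXB and on both sides of HOXD.

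Single AKBA peaks often lay over several DMSO peaks. Of the 32 AKBA peaks 9 (28.1%) overlapped more than 1 DMSO peak, against 4.43% of all AKBA peaks. Beneath them lay 23 of the 41 DMSO peaks (56.1%), against 14.4% of all DMSO peaks. The reverse was seen for 2 of the 41 DMSO peaks (4.88%), against 0.945% of the list. Both directions were thus more frequent in the clusters than over the lists. Wide peaks in closely spaced groups meet this condition more easily, and the part of width and spacing was not tested.

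The widest AKBA peak of HOXB overlapped 5 DMSO peaks, which filled 31.9% of it, with gaps of 803 to 2421 bp between them. The widest AKBA peak of HOXD overlapped 4 DMSO peaks, which filled 55.4% of it, with gaps of 645 to 865 bp. In HOXA both AKBA peaks overlapped 2 DMSO peaks each, across gaps of 884 and 2381 bp. No gap of the AKBA list was shorter than 857 bp, while the DMSO list went down to 641 bp. Of the 15 DMSO gaps beneath the 9 AKBA peaks, 6 were shorter than 857 bp and 9 were not. For the widest AKBA peak of HOXD 2 of the 3 gaps were below the limit, whereas both gaps in HOXA were above it. With DMSO gaps of up to 856 bp closed, the clusters held 35 DMSO peaks, still more than 32. They were 5 in HOXA, 21 in HOXB and 9 in HOXD, so that HOXD then had more AKBA than DMSO peaks.

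The third comparison asked whether the lists marked the same places. Of the 41 DMSO peaks of the clusters 35 (85.4%, exact 95% Clopper-Pearson interval 70.8 to 94.4%) overlapped an AKBA peak, where 54.5% of all DMSO peaks did. From the AKBA side 23 of 32 peaks (71.9%, interval 53.3 to 86.3%) met a DMSO peak, where 32.2% of all AKBA peaks did. At 50% reciprocal overlap 8 peaks of each list were shared, 19.5% of the DMSO and 25.0% of the AKBA peaks of the clusters against 20.8% and 14.05% of the lists, so the higher DMSO share did not hold at that setting. The intervals cover counting error only and treat neighbouring peaks as independent. Among peaks of at least 2 kb all 8 DMSO peaks (interval 63.1 to 100%) and all 17 AKBA peaks (80.5 to 100%) were shared. Over the lists 99.3% and 89.0% of peaks of that width were, so wide peaks of the clusters did not stand apart from other wide peaks beyond counting error. Among peaks of 1 to 2 kb 11 of 12 DMSO peaks (91.7%, interval 61.5 to 99.8%) and 3 of 7 AKBA peaks (42.9%, interval 9.90 to 81.6%) were shared, against 89.5% and 48.7% of the lists. Among DMSO peaks under 1 kb 16 of 21 (76.2%, interval 52.8 to 91.8%) were shared, against 41.5% of the list. Among AKBA peaks under 1 kb the count was 3 of 8 (interval 8.52 to 75.5%), against 14.9%.

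In the clusters 45.9 kb were called in both lists, which made up 83.8% of DMSO and 48.1% of AKBA bases. Genome-wide the shares were 64.2% and 33.2%. HOXA was the most alike between the lists, with 94.9% of its DMSO bases and 69.0% of its AKBA bases in common. In HOXB the shares were 78.4% and 46.7%, and in HOXD 88.8% and 43.3%. The bases in common made up 66.6% of all bases called in either list in HOXA, 41.3% in HOXB and 41.0% in HOXD, beside 28.0% over the genome.

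The additional AKBA bases lay mostly beside or between DMSO peaks, not at separate places. Counted over whole peaks, AKBA peaks measured 40.6 kb more than DMSO peaks. Places where several peaks of one list met 1 or more peaks of the other gave 23.0 kb of this. The longest of them, in HOXB, joined 7 DMSO peaks with 12.1 kb and 3 AKBA peaks with 22.2 kb. The 11 places with 1 peak of each list gave 12.9 kb. The 9 AKBA peaks without a DMSO overlap gave 7.52 kb, and the 6 DMSO peaks without an AKBA overlap took off 2.78 kb. AKBA peaks without a DMSO overlap held 7.85% of the AKBA bases of the clusters, against 41.0% in the whole list.

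In the 11 places with 1 peak of each list, the AKBA peak was the wider one in 9 (81.8%), against 73.1% of 3510 such pairs over the genome. The median difference was 1220 bp, and 404 bp over all pairs. At the 5′ edge of HOXD a DMSO peak of 1691 bp faced an AKBA peak of 5282 bp, which ran on to higher coordinates. In the middle block of HOXB a DMSO peak of 462 bp, from 46723692 to 46724153, faced an AKBA peak of 2862 bp. The 2 exceptions were both in HOXD, where the AKBA peak was narrower by 183 and by 83 bp.

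The peaks seen in 1 list only were narrow or of middle width. With AKBA there were 4 in HOXB and 5 in HOXD, of 214 to 1685 bp. The widest of them, from 177014656 to 177016340 on the 3′ side of HOXD, scored 3.40 at 2.42 kb from the closest DMSO peak. The next, from 176963394 to 176964992 on the side of HOXD13, measured 1599 bp and lay 4.04 kb away. The one farthest from a DMSO peak was in the sparsely marked part of HOXB, from 46754646 to 46755675, at 29.2 kb. With DMSO there were 1 in HOXA, 4 in HOXB and 1 in HOXD. Of these 5 measured 160 to 445 bp, and the sixth was wider. It lay on the 3′ side of HOXB from 46639864 to 46641366, measured 1503 bp with a score of 3.66, and was 12.1 kb from the nearest AKBA peak.

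In bins of 5 kb with a peak of either list, 37 of the 46 cluster bins (80.4%, exact Clopper-Pearson interval 66.1 to 90.6%) had more AKBA than DMSO bases, and 73.4% of the 17410 bins over the genome did. AKBA bases were at least 2 times the DMSO bases in 19 bins (41.3%, interval 27 to 56.8%), where 59.9% of the genome bins passed that fold. DMSO bases were at least 2 times the AKBA bases in 6 bins (13.0%, interval 4.94 to 26.3%), where 20.1% did over the genome. Both shares past the fold were thus below those of the genome. The intervals cover counting error only and treat neighbouring bins as independent, although a single peak can span several bins. Whether the shares differ from the genome was not tested. A bin with bases in a single list passes the fold by definition. Both lists had bases in 33 of the 46 cluster bins and in 5864 of the 17410. By cluster, AKBA passed the fold in 0 of 5 bins in HOXA, 12 of 26 in HOXB and 7 of 15 in HOXD.

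The last comparison set the 5′ side of each cluster, with high paralog numbers, against the 3′ side. HOXA was marked on its 5′ side alone in both lists, while HOXB and HOXD were marked on both sides. The 5′ side of HOXA, 65 kb long, was covered to 12.3% with DMSO and 16.9% with AKBA, and its 3′ side had 0 kb in either. In HOXB the 5′ side was covered to 14.9 and 26.5% and the 3′ side to 13.9 and 21.8%. In HOXD the 5′ side was covered to 11.6 and 28.4% and the 3′ side to 17.3 and 30.8%. The 5′ side less the 3′ side gave 1.01 and 4.66 percentage points in HOXB and -5.78 and -2.39 points in HOXD, for DMSO and AKBA in that order. Neither sign in HOXB, nor that of HOXD with AKBA, held under every choice of peaks. The 5′ side of HOXB had 44.0% and 49.9% of the covered bases with a score of at least 3, and with AKBA that of HOXD had 50.5% with peaks of at least 1 kb and 51.0% with peaks within 5 kb merged.

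**Figure D4:**
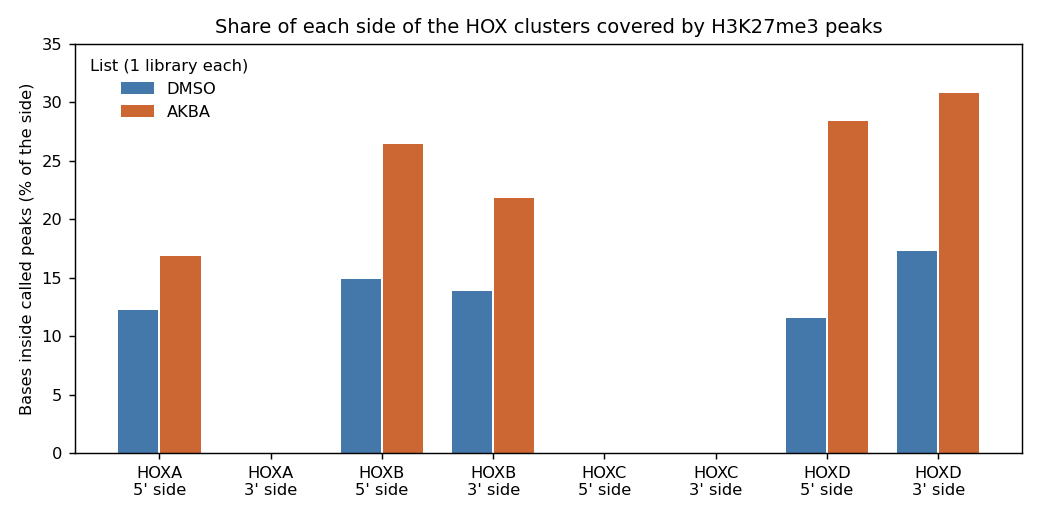
Bases inside called peaks, in % of the length of each side of a HOX cluster region, for the DMSO list (blue) and the AKBA list (orange), 1 library each and no error bars. HOXC and the 3′ side of HOXA are at 0, and on every other side the AKBA bar is the taller one.

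The ratio of AKBA to DMSO bases was 1.78 on the 5′ side and 1.57 on the 3′ side of HOXB, and 2.46 and 1.78 in HOXD. On the 5′ side of HOXA it was 1.38. With a score of at least 3 the ratios were 2.30 and 1.82 in HOXB and 2.03 and 1.996 in HOXD, 5′ side first. With peaks merged the HOXB sides gave 1.01 and 1.11. With the split moved toward the 5′ end, the 5′ part of HOXB held 38.1% of DMSO and 28.1% of AKBA bases. With it moved toward the 3′ end, that part held 84.4% and 82.4%. Both times the AKBA share was the lower one, so the 5′ part had the lower ratio. The order of the sides in HOXB thus rests on the choice of peaks and on the split. In HOXD the 5′ side had the higher ratio under every choice of peaks, though barely with a score of at least 3. Over all 4 clusters the 5′ sides gave 1.82 and the 3′ sides 1.65, both below 1.94. That pooled order was the reverse with peaks merged and with the split moved either way, though barely with it moved toward the 3′ end. The direction within HOXB depended on the point of division, because the midpoint falls in its middle block. With the split moved by 10% of the length toward the 5′ end, the 5′ part of HOXB was covered less densely than the 3′ part, with differences of -1.15 points for DMSO and -11.9 for AKBA. HOXA had all its covered bases in the 5′ part with each of the 3 splits. This was fixed in advance, since every HOXA peak lay within 21.2 kb of the 5′ edge, short of each split.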

How the data were processed

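Chromatin of HaCaT cells was immunoprecipitated for H3K27me3 and sequenced, 1 library with DMSO and 1 with AKBA. Per the submitters' processing notes the build was hg19 and BWA, STAR and MACS2 were used, without a stated version or role. The sources used here do not give the peak threshold, the handling of duplicate reads or the use of the input. The lists the authors deposited give a position and a score per peak. The scale of this deposited score is not stated, so it was used to rank and filter within a list. A minimum width or joining distance that differs between libraries changes peak numbers and widths.

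Peak positions are printed 1-based, with 1 added to the deposited starts, which were used unchanged for the counts. Peaks were clipped to the regions for covered bases and called shared at 1 bp of overlap. The software was scipy 1.17.1, pandas 2.3.3 and numpy 2.4.6 under Python 3.11.15. Overlap and coverage were checked against per-base counts on shifted copies of the peaks. With 1 library per condition there was no test. The places named were, per cluster and list, the widest peak, the highest-scoring peak and the longest stretch without one, and other peaks named were chosen after their values were seen. Members, regions and comparisons were chosen with earlier results of these data known. Gene lists beyond the HOX genes needed an hg19 annotation and were not analysed here. Alternatives were a stricter score, equal peak numbers, a width minimum, merging, no narrowest peaks, other definitions of overlap, membership, split and bin, and, added after seeing the data, joined DMSO gaps. Depth is unknown.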

Additional observations from a re-analysis of the deposited data

How the results depend on the processing

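The 5 alternatives that change the peaks only remove or merge them, so HOXC and the 3′ side of HOXA were at 0 by construction. The ratio of covered bases over the 4 clusters stayed above 1. The ratio of peak numbers was below 1 except with peaks of at least 1 kb, where it was 1.20. The DMSO number was 27 with a score of at least 3, 20 with peaks of at least 1 kb and 16 with peaks within 5 kb merged, which left 14 AKBA peaks. Merging, which counts the gaps as covered, gave base ratios of 0.861 in HOXA and 1.05 in HOXB. Shared peaks were 95% with DMSO at a width of at least 1 kb (82.8% of the list), 88.5% with AKBA when the same number of highest-scoring peaks was taken from each list (42.8%), and 19.5% and 25.0% at 50% reciprocal overlap (20.8% and 14.05%). The share of HOXB bases on the 5′ side, 51.8% with DMSO and 54.8% with AKBA, was 44.0% and 49.9% with a score of at least 3, 46.6% with DMSO peaks of at least 1 kb, 38.1% and 28.1% with the split moved toward the 5′ end, and 84.4% and 82.4% with it moved toward the 3′ end. In density the split toward the 5′ end gave differences of -1.15 and -11.9 points. The share in HOXD, 40% with DMSO and 48.0% with AKBA, was 24.7% with DMSO at the split toward the 5′ end, and with AKBA 50.5% at a width of at least 1 kb, 51.0% after merging and 53.3% with the split toward the 3′ end, where the 5′ part is the longer one and its density was lower by a difference of -8.27 points. The sign in HOXB thus rests on the peaks and the split, and that of HOXD with AKBA on the peaks. Bins of 10 kb gave 42.9% toward AKBA and 10.7% toward DMSO (genome 59.4% and 19.4%), and a fold of 3 gave 39.1% and 13.0% (55.2% and 18.8%). No paired analysis was possible because each condition has 1 library. Unknown depth and single libraries limit every comparison.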

Other observations

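The 100 kb on either side of the regions were uneven too. In the 5′ flank of HOXA peaks covered 9.62 kb with DMSO and 15.5 kb with AKBA, and in the 3′ flank 0 kb with both. In the 5′ flank of HOXD they covered 7.32 and 11.7 kb and in the 3′ flank 0 and 0.435 kb. In HOXB the 5′ flank held 7.20 and 10.9 kb and the 3′ flank 1.61 and 2.07 kb. Beside HOXC the 5′ flank held 0 kb with both and the 3′ flank 2.51 kb with DMSO and 3.87 kb with AKBA. The flank on the side of high paralog numbers was therefore the more covered one in HOXA, HOXB and HOXD in both lists, and the less covered one in HOXC.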
